A study of Mus musculus with 12 samples.

Results

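Binding of RXR, the retinoid X receptor, was compared between mouse embryonic stem (ES) cells and the same cells at day 16 of neural differentiation, from 1 peak list per ChIP-seq library. A day 16 region was the union of peaks of both day 16 replicates that overlapped by at least 1 bp, and it counted as shared when it overlapped a peak of the control ES cell list by at least 1 bp. This gave 297 day 16 regions, of which 212 were shared and 85 were day 16 only, and 1089 control peaks, of which 209 were shared and 880 were control only. The 3 lists compared held 1927 of the 76731 peaks in the 12 lists of the series. Each region was placed in 1 of 3 classes by the deposited detailed annotation. The repeat class held simple repeats, satellites, low-complexity sequence and rRNA, the LTR class held long terminal repeat elements, and the other class held everything else, short and long interspersed elements and mitochondrial DNA included.

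All cells were wild type E14, a feeder-free mouse ES cell line kept on gelatin with leukemia inhibitory factor (LIF). The control was labelled CTRL and is 1 library; the protocol names dimethylsulfoxide as the vehicle. For day 16, labelled as 2 replicates, cells were aggregated into embryoid bodies without LIF, given all-trans retinoic acid (RA) at 5 µM over some days, and plated on laminin and poly-ornithine in N2 medium. The series further holds RXR lists from ES cells treated for 24 h with GW3965, LG268 or RA at 1 µM (1 library each), from day 8 of the differentiation (2 libraries), and H3K27ac lists from ES cells with vehicle or each ligand (1 library each). Day, RA exposure and culture medium changed together and cannot be told apart. With 1 control library no test compares the conditions, and the tests below compare peaks of lists. The labels do not say that the day 16 replicates came from separate cultures. No read totals come with the lists: depth is unknown, and peak numbers depend on it. They carry no expression, so the identity of the day 16 cells was not checked.

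RXR is a nuclear receptor that binds DNA mostly as the partner of other receptors, among them the retinoic acid receptors (RAR), the liver X receptors (LXR) and the peroxisome proliferator-activated receptors (PPAR). Each pair reads a direct repeat of a short hexamer, and the spacing of the repeat helps to decide which partner binds. In ES cells and in the developing nervous system the RAR pairs carry the response to retinoic acid, while LXR and PPAR pairs control genes of cholesterol export, lipid synthesis and fatty acid oxidation.

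The promoter sequences below are shown because RXR was called there in ES cells and in at least 1 day 16 replicate, and because each holds a direct repeat or a close relative of one. They are RefSeq promoters of the build GRCm38.p6, printed 5′ to 3′ on the strand of the gene, and only as far as a peak covered the bases before the transcription start. The Rarb stretch lies at chr14:16575477-16575651, that of Srebf1 at chr11:60210551-60210721 and that of Fasn at chr11:120824642-120824797. The Abca1 stretch, at chr4:53159896-53160123, is the part under the control peak. All 4 genes are on the minus strand. Capitals in Rarb mark both hexamers of a direct repeat with 5 bases between them (DR5), 53 to 37 bases before the start. Capitals in the other 3 mark TGACC and GTAACC with 4 bases between them, an arrangement known from LXR elements. All 3 marked sites in Rarb, Srebf1 and Fasn lay inside the peaks of all 3 libraries, and that of Abca1 lay inside the peaks of the control and of day 16 replicate 2.
Rarb: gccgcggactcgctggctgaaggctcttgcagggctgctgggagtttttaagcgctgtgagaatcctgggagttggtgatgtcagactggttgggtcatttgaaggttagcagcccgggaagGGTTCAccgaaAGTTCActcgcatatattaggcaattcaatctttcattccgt
Srebf1: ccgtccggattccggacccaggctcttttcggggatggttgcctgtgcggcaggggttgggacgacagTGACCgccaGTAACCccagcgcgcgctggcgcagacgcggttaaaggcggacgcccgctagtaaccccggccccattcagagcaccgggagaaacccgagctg
Fasn: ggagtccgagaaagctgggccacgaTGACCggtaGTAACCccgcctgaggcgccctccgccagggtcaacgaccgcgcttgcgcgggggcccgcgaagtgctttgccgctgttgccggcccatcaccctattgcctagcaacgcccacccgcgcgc
Abca1: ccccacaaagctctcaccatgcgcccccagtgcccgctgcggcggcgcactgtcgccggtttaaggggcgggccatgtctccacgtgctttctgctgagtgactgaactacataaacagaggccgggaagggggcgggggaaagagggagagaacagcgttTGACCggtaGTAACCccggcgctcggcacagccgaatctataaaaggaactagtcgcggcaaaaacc

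The hexamer AGGTCA was searched on both strands of 32851 RefSeq promoter windows of 300 bases, along with GGGTCA as one form, with AGTTCA as another and with GGTTCA as the last. At least 1 of these hexamers stood in 14358 of all windows (43.7%). It was so in 4 of the 13 windows that a shared region of the other class overlapped (30.8%). Among the 192 that a control only peak overlapped it was 117 (60.9%). A direct repeat was any pair of these hexamers on 1 strand with 0 to 8 bases between them. A direct repeat stood in 367 windows (1.117%), in 1 of the 13 windows that a shared region of the other class overlapped, and in 5 of the 192 that a control only peak overlapped. The 1 window among the shared was that of Rarb. A DR5 stood in 32 of all windows (0.0974%). The LXR-type arrangement (GGTTAC, any 4 bases, then GGTCA, on either strand) was looked for after these sequences had been seen, so its presence in them is no independent result. It stood in 12 of all windows (0.0365%), which belong to 9 genes. Of these genes 4 had a control peak within 100 kb and 2, Srebf1 and Fasn, also a day 16 region. No genome of the build was at hand, so regions away from promoters were not searched.

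Most of what RXR peaks at day 16 had in common between replicates was repeat sequence. The repeat class held 150 of 1089 control peaks (13.8%, exact 95% interval 11.8 to 15.96), 210 of 429 peaks of day 16 replicate 1 (49.0%, 44.1 to 53.8) and 197 of 409 of replicate 2 (48.2%, 43.2 to 53.1). Telomere-type repeats, arrays of the motif that caps mouse chromosomes, made up 109 of the 150, 143 of the 210 and 134 of the 197. Fisher's exact test (two-sided) was run on the peaks of each list against the control list, with Benjamini-Hochberg adjustment over 6 tests. Many sites have a peak in both lists, so the groups tested are not independent. By this exact test the odds of the repeat class against the control were 6.003 times as high in replicate 1 (adjusted p = 1.68e-43) and 5.82 times as high in replicate 2 (adjusted p = 3.81e-41). With the 3 lists trimmed to equal length by score, the ratios were 2.32 (adjusted exact p = 2.34e-08) and 2.04 (adjusted exact p = 1.66e-06), and with only peaks above the median score of each list they were 10.9 and 9.18. For the LTR class the same exact test did not pass, with ratios of 1.43 (adjusted p = 0.298) and 1.497 (adjusted p = 0.265). Other-class peaks numbered 912, 204 and 197. How reads were placed within repeats is not given in the sources used here.

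Day 16 replicates agreed on repeats more often than on other sequence. Of replicate 1, 192 of 210 repeat peaks (91.4%, 86.8 to 94.8) and 111 of 204 other peaks (54.4%, 47.3 to 61.4) had a partner in replicate 2. Of replicate 2, it was 185 of 197 (93.9%, 89.6 to 96.8) and 103 of 197 (52.3%, 45.1 to 59.4). Over the regions found in both, Spearman's rho of the authors' peak scores was 0.954 for the 185 repeat regions and 0.727 for the 103 other regions, as a description of regions that share both libraries. The 297 regions were 185 of the repeat class (62.3%, 56.5 to 67.8), 9 of the LTR class and 103 of the other class (34.7%, 29.3 to 40.4), 4 of them mitochondrial.

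Sharing with ES cells differed in the same way by class. Of day 16 regions, 149 of 185 repeat regions (80.5%, 74.1 to 86.0), 5 of 9 LTR regions (55.6%, 21.2 to 86.3) and 58 of 103 other regions (56.3%, 46.2 to 66.1) overlapped a control peak. Seen from the control, 137 of 150 repeat peaks (91.3%, 85.6 to 95.3), 6 of 27 LTR peaks (22.2%, 8.62 to 42.3) and 66 of 912 other peaks (7.24%, 5.64 to 9.12) overlapped a day 16 region. Of the 846 control only peaks of the other class, 42 met a day 16 peak that belonged to no region found in both replicates (33 a peak of replicate 1 and 11 one of replicate 2, some of them both), and 804 met none. Most repeat sites of ES cells were found again at day 16 and most other sites were not. Peak widths differed as well, with a median of 216 bp in the control list, 96 bp in replicate 1 and 121 bp in replicate 2. Shared regions overlapped a control peak by a median of 135 bp. The smallest overlap was 62 bp, at a repeat nearest 1700019E08Rik, and the nearest miss was a gap of 37 bp, at the day 16 only region nearest 2010315B03Rik.

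**Figure D1:**
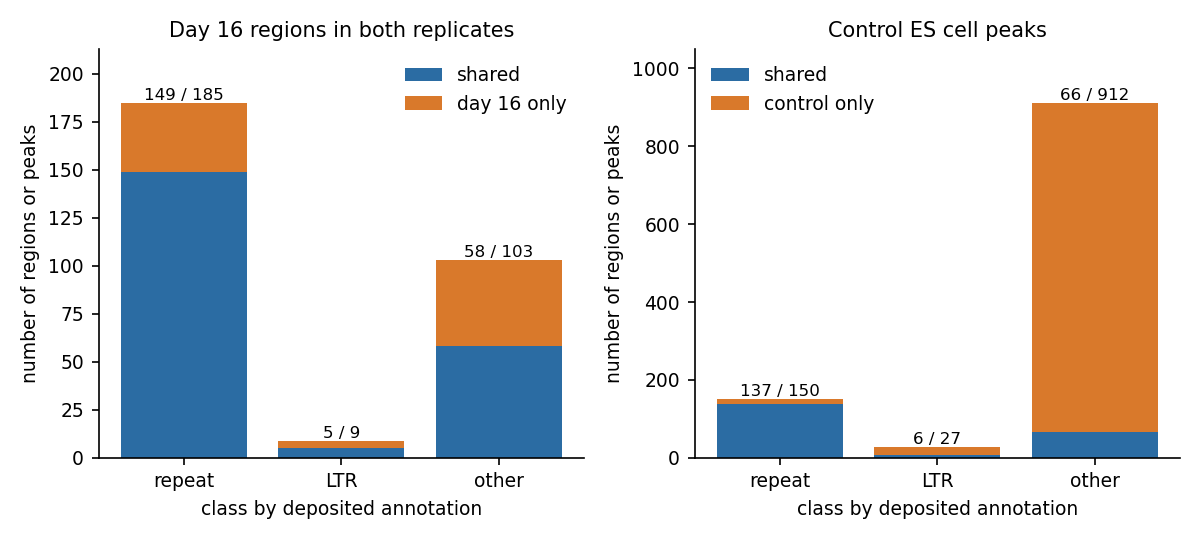
Number of day 16 regions found in both replicates (left) and of control ES cell peaks (right) by class; blue marks those shared with the other side, orange those found on 1 side, and the label gives shared over all. Repeats are mostly shared on both sides (149 of 185 and 137 of 150), while 66 of 912 other-class control peaks are shared.

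Which control peaks were found again followed their score, the value the authors' peak caller gave each peak. Among other-class control peaks, 36 of 155 in the top quartile of the control list by score were shared (23.2%, 16.8 to 30.7). In the next quartile 21 of 240 were shared (8.75%, 5.50 to 13.1), in the third 5 of 254 (1.97%, 0.642 to 4.53) and in the lowest 4 of 263 (1.52%, 0.416 to 3.85). Repeat peaks stood at 109 of 113 in the top quartile (96.5%, 91.2 to 99.0) and 20 of 21 in the next. In the top quartile the intervals of both classes did not overlap.

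**Figure D2:**
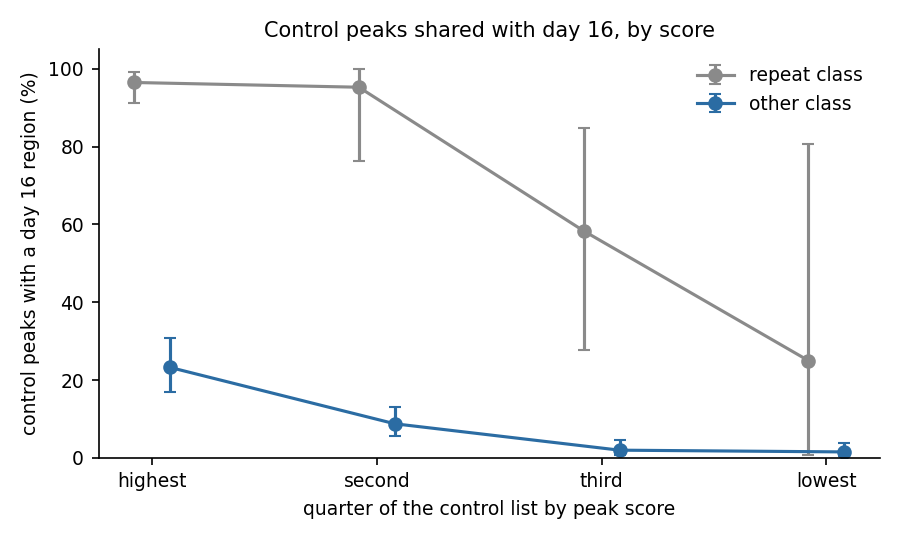
Share of control peaks that overlap a day 16 region, by quartile of the control list by peak score; points are shares and bars exact 95% intervals, grey for the repeat class and blue for the other class. In the top quartile 96.5% of repeat peaks and 23.2% of other peaks are shared, and the other class falls to 1.52% in the lowest.

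Within the 50 highest day 16 regions by mean rank, 46 were repeats, 1 was an LTR and 3 were of the other class. The leading region was a telomere-type repeat nearest Ptchd3, with a score of 81.1 in the control, 171.6 in replicate 1 and 195.8 in replicate 2. The control list was less closed to other sequence: 34 of its 50 highest peaks were repeats and 16 were of the other class. The highest other-class peak stood at rank 10 of the control list, at rank 43 of replicate 1 and at rank 25 of replicate 2. Of the 36 day 16 only repeat regions, 16 were telomere-type (44.4%, 27.9 to 61.9), against 118 of the 149 shared (79.2%, 71.8 to 85.4).

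The LTR class was small. Its 5 highest regions were shared with the control and were elements annotated as RLTR33 near Aida, ORR1A1 near Fam171a1, RLTR44-int near Dock2 and Fam196b, and RMER12C near Zfy1. The RLTR33 element near Aida scored 20.7 in the control, 75.5 in replicate 1 and 81.6 in replicate 2. It lay 2298 bp from the transcription start, in all 5 remaining RXR lists and all 4 H3K27ac lists. All 9 LTR regions also met a peak of both day 8 replicates.

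By the deposited annotation, none of the 20 highest of the 58 shared regions of the other class lay within 1 kb of a start, against 12 of the remaining 38. The RefSeq table puts a promoter of Gm41331 under 1 of the 20, the region nearest 4933412E24Rik. The highest lay nearest Nt5e, the ectonucleotidase CD73, 231142 bp from its start, with scores of 9.26 in the control, 62.0 in replicate 1 and 84.6 in replicate 2. Next came a site 27376 bp from Ndufb3, a subunit of respiratory complex I, with 8.18, 68.7 and 69.9. A site 44360 bp from Tbc1d14, a regulator of autophagy, had 23.6, 57.2 and 69.8. These 3 sites ranked 25 to 68 in the day 16 lists, and 406, 498 and 99 in the control list.

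Several of these leading sites came in pairs. P4ha2, a collagen prolyl hydroxylase subunit, had regions at chr11:54140027-54140262 and chr11:54140428-54140699. The lower of them scored 12.3 in the control, 43.5 in replicate 1 and 37.1 in replicate 2, and the higher 10.9, 52.2 and 66.4. The region nearest D5Ertd579e, in the same intron as the Tbc1d14 site, was joined by a day 16 only region 188 bp from the nearest control peak. The first intron of Large, a glycosyltransferase of dystroglycan, held a region with 33.4, 70.6 and 49.2. Ndufb3, Tbc1d14, both P4ha2 regions, Large and Ppp1r9a, which encodes the neuronal actin-binding protein neurabin, were found in all 8 RXR lists and all 4 H3K27ac lists. The Ppp1r9a region also lay within 1 kb of a repeat-class peak, the 1 shared day 16 region of the class that did. Seen from the control, 8 of the 66 shared other-class peaks (12.1%, 5.38 to 22.5) and 3 of the 846 control only peaks lay within 1 kb of a repeat-class peak, and 8 of the 66 were shared through a day 16 region of the repeat class.

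The rest of the 20 highest lay nearest 2700054A10Rik, Zfp746, 4933412E24Rik, Xkrx, Ccl28, Lhfpl2, Grhl2, Erdr1, Eef2, Smarcc2, Hoxb3 and Itgb3. Their scores ranged from 5.26 (Ccl28, a chemokine) to 40.2 (Eef2, a translation elongation factor) in the control. Grhl2 is an epithelial transcription factor, whose site lay 29762 bp away and in all 4 H3K27ac lists, and Smarcc2 is a subunit of the BAF chromatin remodelling complex. The site in an intron of Hoxb3, a homeobox gene that answers to retinoids, scored 13.6 in the control, 16.5 in replicate 1 and 20.01 in replicate 2. The RXR site at Hoxb3 lay in the LG268, RA and both day 8 lists and in no H3K27ac list.

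The known targets of the RXR pairs held another place in the order. Rarb, the retinoic acid receptor beta gene and a classic RAR target, scored 33.0 in the control (rank 52), 15.2 in replicate 1 (rank 214) and 15.5 in replicate 2 (rank 196), at the DR5 promoter printed above. Fasn, fatty acid synthase, scored 59.0 in the control (rank 19), 13.1 in replicate 1 (rank 241) and 14.4 in replicate 2 (rank 205). Srebf1, the transcription factor gene that drives lipid synthesis, scored 54.6 (rank 21), 13.8 (rank 236) and 2.90 (rank 393). The deposited annotation puts the Srebf1 site in intron 1, 9941 bp from the start of the transcript named there, while the RefSeq table has a promoter there. Each of these sites was among the highest other-class peaks of ES cells. The median peak score was 15.2 in replicate 1 and 14.4 in replicate 2. Rarb and Fasn lay near it in both, and Srebf1 near it in replicate 1 and far below it in replicate 2. Over the 58 shared other regions the median rank was 229 in replicate 1 and 219.5 in replicate 2. Ranks of lists of different lengths do not measure a change in binding.

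Sites nearest the stearoyl-CoA desaturase genes Scd2 and Scd1 were also among the highest other-class peaks of ES cells. The day 16 peaks of these sites scored below the list medians. The Scd2 region, 9435 bp before the start, scored 76.8 in the control (rank 13), 13.3 in replicate 1 (rank 239) and 9.20 in replicate 2 (rank 271). Scd1 scored 61.5 in the control (rank 17) and 10.6 in replicate 1, and had no peak in replicate 2. Of the PPAR targets, Cpt1a, the gate of mitochondrial fatty acid oxidation, scored 39.3 in the control (rank 39), 9.55 in replicate 1 (rank 300) and 6.33 in replicate 2 (rank 310). Angptl4, a secreted inhibitor of lipoprotein lipase, scored 22.9 (rank 104), 4.47 (rank 391) and 6.33 (rank 310). The nuclear receptor coactivator gene Ncoa3 had an intronic site with 31.6 (rank 57), 10.6 (rank 281) and 11.2 (rank 234). Over the 58 shared other regions, Spearman's rho between the control rank and the mean day 16 rank was -0.0662, and over the 149 shared repeat regions it was 0.785. These values describe regions that share the same 3 libraries.

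**Figure D3:**
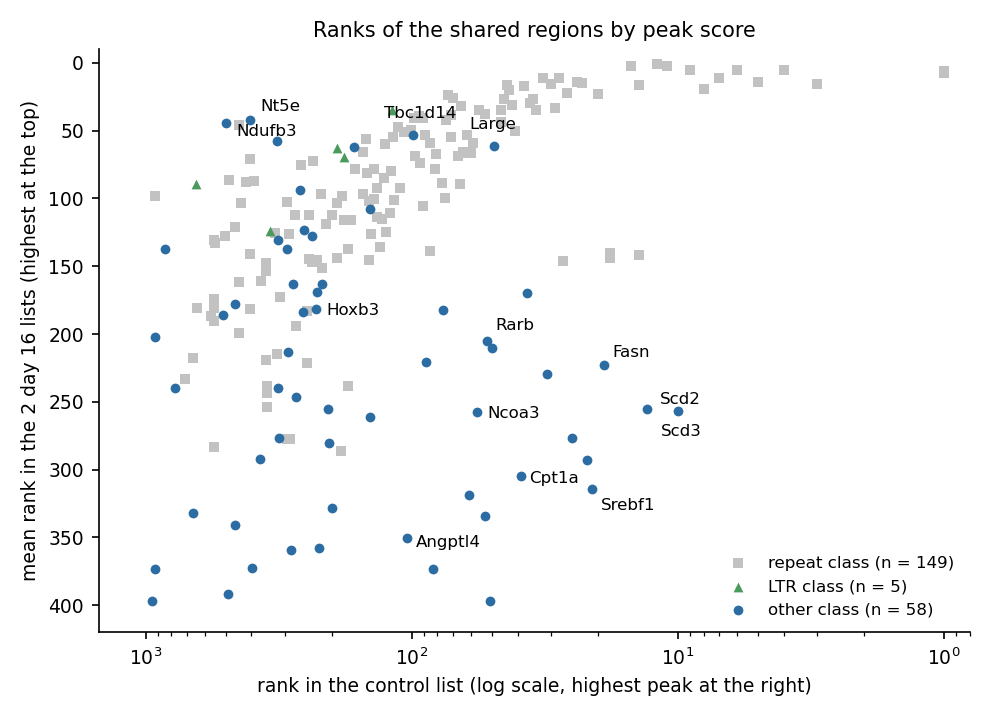
Rank of each shared region in the control list (horizontal, log scale, highest at the right) against its mean rank in both day 16 lists (vertical, highest at the top); grey squares are repeats, green triangles LTR elements and blue circles the other class. Repeats run along a diagonal. Scd2, Fasn and Srebf1 are high in the control and near or below the median of the shared other regions at day 16. That median rank is 229 in replicate 1 and 219.5 in replicate 2. Nt5e and Ndufb3 are high at day 16 and lower in the control.

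Counted over whole gene lists, few members had a day 16 region, and none had one without a control peak. A gene counted when a region for which it was the nearest gene lay within 100 kb of its start. Of the 14490 genes named in any of the 12 lists, 1.09% had a day 16 region, 5.94% a control peak and 0.863% both. Of 20 RAR targets 11 had a control peak and 1, Rarb, a day 16 region. Of 17 LXR targets 10 had a control peak and 3 (Srebf1, Scd2 and Fasn) a day 16 region. Of 19 PPAR targets 8 had a control peak and 2 (Cpt1a and Angptl4) a day 16 region. Of 23 nuclear receptor and cofactor genes the counts were 5 and 1 (Ncoa3), and of 17 Hox genes 5 and 1 (Hoxb3). These counts are small, and the lists were chosen with earlier results of these data known.

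None of 18 pluripotency genes, 22 neural progenitor genes or 16 neuronal genes had a control peak or a day 16 region, and lists this short cannot be set apart from the 5.94% of all genes with a control peak or the 1.09% with a day 16 region. Of 11 glial genes 2 had a control peak and 0 a day 16 region. Of 11 endoderm genes 2 had a control peak and 1 a day 16 region, which was a telomere-type repeat in an intron of Dab2, an endocytic adaptor gene. A few more members had a peak in 1 replicate: Scd1, Hoxc4, Cd36 and Hoxa2 among them, in replicate 1. At Abca1, the cholesterol exporter gene, replicate 1 had a peak in intron 1 and replicate 2 one over the promoter, 4.47 and 5.42 in score, which did not overlap, against 23.2 in the control. Dhrs3, a retinaldehyde reductase gene, had a shared region 106885 bp from its start, just outside the window.

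Of the 15 highest control only peaks of the other class, 2 lay nearest LXR targets (Abcg1 and Scd1), 1 nearest a RAR target (Dhrs3), 1 nearest a PPAR target (Slc25a20), 1 nearest a Hox gene (Hoxc4) and 10 nearest genes on none of the lists. These counts used no distance limit, and the Dhrs3 peak lay 141676 bp from its start, outside the 100 kb window of the gene lists. No share over all 846 control only peaks of the class was set beside these counts, which only describe the 15. The lists were chosen with earlier results of these data known. The highest of the 15 lay in an intron of Abcg1, a cholesterol exporter gene, with a score of 63.3 (rank 16) and no peak in either day 16 list. It was present in all 3 ligand-treated ES cell lists and both day 8 lists. After Scd1 came 1700001O22Rik, with 42.7, and the promoter of Rbks, the ribokinase gene, with 38.3. The peak nearest Dhrs3 followed with 33.6, then Snora31 with 32.0 and the promoter of Slc25a20, the mitochondrial carnitine carrier, with 31.0. Etv3, Uck1, Tet2, Mpv17l2, Snx11, Hoxc4, Chd3 and Caap1 completed the 15 highest, with scores from 25.45 to 28.7. All 15 were in the LG268 and RA lists, and Scd1, Uck1, Hoxc4 and Chd3 had a peak in replicate 1 and Snx11 in replicate 2.

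Other-class regions at day 16 lay at promoters less often than control peaks. Within 1 kb of a start lay 13 of 103 day 16 regions (12.6%, 6.90 to 20.6) and 290 of 912 control peaks (31.8%, 28.8 to 34.9), with an odds ratio of 0.310 by Fisher's exact test, two-sided, over regions (p = 2.19e-05). Of the 103 regions, 58 overlapped a control peak, so the groups tested share sites and are not independent. A low promoter share of other-class peaks was not particular to day 16. It was 17.2% and 9.14% in day 16 replicates 1 and 2, 12.9% and 19.4% in day 8 replicates 1 and 2, and 13.9% with GW3965. With LG268 and RA it was 31.6% and 30.3%. Of the 13 promoter regions 12 were shared and 1, at Hirip3, was day 16 only. CpG islands were the annotation of 10 of the 58 shared regions (17.2%, 8.59 to 29.4), of 48 of 846 control only peaks (5.67%, 4.21 to 7.45) and of 1 of the 45 day 16 only regions.

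Shared and control only peaks also differed in the lists that played no part in defining them. Of the 66 shared other-class control peaks, 34 overlapped a peak of H3K27ac, a histone mark found at active enhancers and promoters, in control ES cells (51.5%, 38.9 to 64.0). Of the 846 control only peaks, 240 did (28.4%, 25.4 to 31.5), and the odds ratio was 2.68 (p = 0.000225, Fisher's exact test, two-sided). By the same exact test, in the H3K27ac lists of treated cells the ratio was 2.10 with GW3965 (p = 0.00596), 2.57 with LG268 (p = 0.000887) and 2.98 with RA (p = 5.24e-05). The share was not particular to the other class. In the repeat class 69 of 137 shared peaks (50.4%, 41.7 to 59.0) and 2 of 13 control only peaks met H3K27ac in control cells, with no test. Shared other-class peaks had higher control scores than control only ones (median rank 254.5 against 644) and were wider (median 246.5 bp against 204 bp). For these tests the top quartile of the control list by score included peaks tied at its limit, unlike in the shares by quartile above. Within it, H3K27ac in control cells still met 22 of 36 shared and 36 of 120 control only peaks (odds ratio 3.67, exact p = 0.0014). There the ratio was 3.04 with GW3965 (exact p = 0.0052) and 3.67 with RA (exact p = 0.00156), and with LG268 it was 2.24 and no longer passed (exact p = 0.0565). Without the 8 shared peaks that lay on repeat-class day 16 regions, the ratios ran from 2.31 (GW3965) to 3.39 (RA), with exact p of at most 0.00334. With only peaks above the median score of each list, the H3K27ac lists included, the ratio in control cells was 1.21 (exact p = 0.637), and it passed in none of the 3 treated lists (0.985, 1.91 and 2.09).

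Shared peaks were also more often present in the remaining RXR lists. They met a peak in 48.5% with GW3965, 95.5% with LG268 and 93.9% with RA, against 13.7%, 67.0% and 66.1% of control only peaks. At day 8 they met a peak in 75.8% for replicate 1 and 86.4% for replicate 2, against 21.0% and 35.5%. Fisher's exact test, two-sided and adjusted over 5 lists, gave odds ratios from 5.92 (GW3965) to 11.7 (day 8 replicate 1), with adjusted p of at most 3.29e-07. Without the 8 shared peaks on repeat-class regions the ratios ran from 6.93 to 11.4, with adjusted exact p of at most 3.62e-06. Score moved with this result. Within the top quartile by score the shares for LG268 were 100% and 94.2% and for RA 94.4% and 98.3%. There, by the same exact test, the GW3965 difference passed (odds ratio 4.33, adjusted p = 0.0014), and those of day 8 replicate 1 (2.20, adjusted p = 0.0954) and replicate 2 (3.43, adjusted p = 0.0712) did not. Of the 58 shared other regions, 24 were in all 8 RXR lists.

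**Figure D4:**
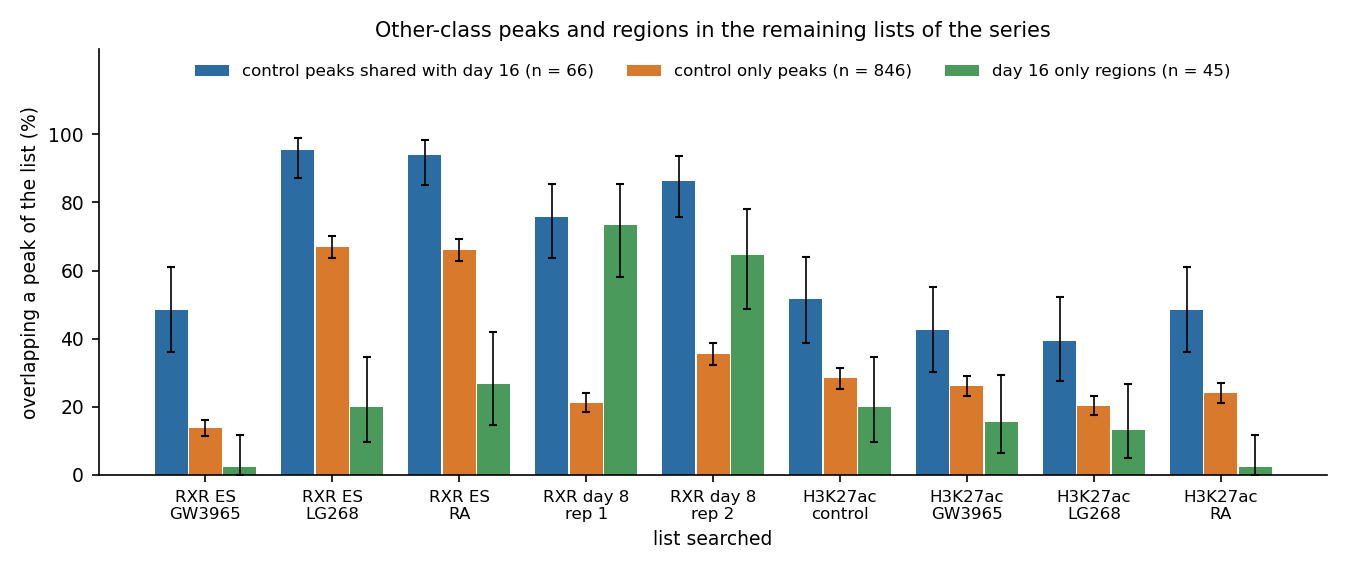
Share of other-class control peaks shared with day 16 (blue), control only peaks (orange) and day 16 only regions (green) that overlap a peak of each remaining list; error bars are exact 95% intervals. Shared peaks exceed control only peaks in all 9 lists, and day 16 only regions stand at 73.3% and 64.4% in the day 8 lists but at 2.22% to 26.7% in the ligand-treated RXR lists.

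The 45 day 16 only regions of the other class were mostly sites that RXR already had at day 8. Of them 34 met a day 8 peak and 28 met one in both day 8 replicates, while 1 was in the GW3965 list, 9 (20%, 9.58 to 34.6) in the LG268 list and 12 (26.7%, 14.6 to 41.9) in the RA list. In no other RXR list were 8 of them. H3K27ac in control ES cells met 9. No test was made on these regions, which were fixed by the absence of a control peak, and 11 of the 85 day 16 only regions of all classes lay within 1 kb of one.

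Some day 16 only regions lay in repeated sequence that the class rule does not cover. Interspersed short elements annotated 7 of the 45 and 0 of the 58 shared regions. Seen from the control, they annotated 4 of the 66 shared peaks (6.06%) and 51 of all 912 peaks of the class (5.59%). Of the 45 day 16 only regions, 11 lay over 100 kb from a start, 3 were mitochondrial and 2 were on chromosome Y. The highest, nearest the zinc transporter gene Slc39a10, was 2028063 bp from it, with scores of 58.4 in replicate 1 and 78.5 in replicate 2. The next, nearest Csf2ra, a cytokine receptor gene, had 41.9 and 27.2. Gm8579, A630089N07Rik, D5Ertd579e, Copz1, Ntpcr, 4933402J10Rik, Cyp51, Erdr1, Rims2, Pigk and 2700054A10Rik were the nearest genes of 12 more of the 15 highest, and a mitochondrial region was the last. Rims2 encodes a presynaptic scaffold protein of nerve terminals, and its region lay in an intron 179590 bp from the annotated start.

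Some regions were neighbours. Of the 103 other regions, 24 lay nearest 8 genes with more than 1 region. Near 2700054A10Rik there were 6, of which 2 were shared, and near Cyp51, which encodes a sterol demethylase, 4 within chr5:4052653-4054362, of which 2 were shared. The Cyp51 regions lay in an intron of another transcript, 50378 to 51956 bp from the Cyp51 start. Members near 1 gene are not independent sites.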

How the data were processed

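The authors' deposited lists hold 1 row per peak with its position, a peak score, the distance to the nearest transcription start, the nearest gene and a detailed annotation. The deposited score is the authors' own, on a scale not given in the sources used here, and was used within a list. The submitters' processing notes name BWA 0.6.0, MACS2 2.0.10 and HOMER 4.2, with the builds mm9 and mm10 and no role for each; the file headers name mm10. Peaks were called per library, per the files. Depth is unknown, and intervals (exact Clopper-Pearson, 95%) cover counting error only.

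Regions, overlaps of at least 1 bp, Fisher's exact tests and Benjamini-Hochberg adjustment were computed in Python 3.11.15 with pandas 2.3.3 and SciPy 1.17.1, and tested on simulated peaks. Genes were named by rule: the nearest genes of the 20 highest shared, 15 highest day 16 only and 15 highest control only regions of the other class, of the 5 highest LTR regions, and gene-list members with a day 16 region within 100 kb. Highest means the mean rank over both replicates for day 16 regions and the rank in the control list for control peaks. Abca1, Hoxa2, Cd36, Dab2, Hirip3, Ptchd3 and the genes closest to the overlap threshold were added after their values were seen. Members, gene lists and tests were chosen with earlier results of these data known. Alternatives were other overlap rules, score limits, list lengths, gene windows and each replicate left out. Promoter sequences are from RefSeq, GRCm38.p6.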

Additional observations from a re-analysis of the deposited data

How the results depend on the processing

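The 3 main counts moved with the rule. Day 16 regions numbered 180 with only peaks above the median score of each list and 112 without repeats. The shared part of day 16 regions, 71.4% as reported, was 36.2% with a 50% reciprocal overlap, 83.3% with peaks above the median, 60.1% with lists of equal length, 55.4% without repeats, and 54.8% to 61.1% with 1 replicate in place of both. The shared part of control peaks, 19.2% as reported, was 9.18%, 27.02%, 42.8% and 6.603% under the same 4 rules in that order, and 20.3% to 22.6% with 1 replicate. In the other class the shared part of day 16 regions was 44.9% (reciprocal overlap), 70.4% (above the median), 44.1% (equal length) and 34.5% to 47.1% (1 replicate). That of other-class control peaks was 5.04% (reciprocal overlap), 17.8% (equal length) and 8.44% to 10.9% (1 replicate). Of 81 alternative values of tests, 69 kept their direction and side of the threshold. The odds ratio of the LTR class in replicate 1 turned to 0.952 with peaks above the median score. There the ratio for H3K27ac in control cells fell to 1.21 and, with GW3965, turned to 0.985, while those with LG268 and RA were 1.91 and 2.09, all short of the threshold. The ratios for the RXR lists with LG268 and RA were 3.04 and 2.96, also not past it. With centres within 200 bp the H3K27ac ratio with GW3965 was 1.71 (exact p = 0.0981). Within the top score quartile of the control list, an alternative added after the data were seen, the ratio for the RXR list with RA turned to 0.288, the day 8 ratios were 2.20 and 3.43, and the H3K27ac ratio with LG268 was 2.24, none of them past it; for the RXR list with LG268 no ratio could be given, since all 36 shared peaks overlapped (adjusted exact p = 0.354). Fewer peaks were tested in both settings. Leaving out control peaks on repeat-class day 16 regions, also added after the data were seen, kept all 9 of these tests past the threshold. RAR targets with a day 16 region were 2 without a distance limit, and replicate 1 alone gave 5 LXR and 4 PPAR targets, against 4 and 2 with replicate 2 alone. No paired analysis was possible because the control is 1 library and shares no replicate number pair with day 16.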

Other observations

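The following 5 genes nearest lower shared regions of the other class were picked out after their values were seen, and no group of genes was tested. Dbp, a clock output transcription factor gene, had an intronic region with a score of 33.3 in the control, 18.9 in replicate 1 and 12.3 in replicate 2. Nr1d2, the gene of the clock repressor REV-ERB beta, had a CpG island region 795 bp from its start with 11.8, 15.2 and 8.22. Klf9, a hormone-responsive transcription factor gene, had a CpG island region with 15.1, 6.42 and 7.26. The histone demethylase gene Kdm6b had a CpG island region with 25.6, 14.2 and 13.3, and the promoter of the histone methyltransferase gene Dot1l had 13.8, 7.43 and 3.70. Kdm6b was in all 8 RXR lists and all 4 H3K27ac lists.

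The Fasn and Srebf1 promoters share their LXR-type arrangement with Acsl3, a fatty acid activating enzyme gene. Its window held the arrangement 112 to 98 bases before the start, under a control peak with no day 16 region. Of the 185 repeat regions at day 16, 119 met an H3K27ac peak in at least 1 ES cell list and 86 were in all 8 RXR lists. The H3K27ac overlap was not particular to repeats. It held for 36 of the 58 shared other regions, 13 of the 45 day 16 only other regions and 5 of the 9 LTR regions. In all 8 RXR lists were 24 of those 58 and 2 of the 9 LTR regions.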
